A study of Arabidopsis thaliana with 2 samples.

Results

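The introns described here are exitrons, stretches that were spliced out of the inside of an annotated coding exon. They were taken from long reads of Arabidopsis thaliana floral buds by a rule with 4 parts. The intron had to be at least 30 nt long, it had to be carried by at least 2 nuclear reads over both replicates, masked gaps were left out, and both its ends had to lie inside 1 annotated CDS segment of a protein-coding gene on the same strand (annotation and genome of TAIR10.1). The rule found 655 exitrons in 578 genes, which was 0.725% of the 90352 introns with at least 2 reads and 30 nt. The members were thus chosen by their spliced read counts and the annotation, so the number of exitrons and their positions in coding exons are a description. It does not use the splice signal or the base composition. It uses the spliced reads, which are the numerator of the spliced share. It also needs a coding frame on record that runs through the exitron, with a stop codon at its very end at most. This bears on length in multiples of 3, so shares and lengths are a description too.

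The 2 libraries were PacBio Iso-Seq libraries of full-length cDNA from total RNA of inflorescences with unopened floral buds of wild-type Columbia-0 (Col-0) plants, grown in long days, 1 library for each of 2 biological replicates. There was 1 group and no treatment, so the comparisons are between replicates and between kinds of intron. The nuclear genome held 261570 reads in replicate 1 and 247839 in replicate 2, of which 204271 and 197902 had an intron. Each of the 7 floral organ genes checked (AP1, AP3, PI, AG, SEP1, SEP2 and SEP3) had between 15 and 81 reads in each replicate, whereas the 3 root hair genes had at most 2 and the 4 seed storage genes at most 1. Whole inflorescences were sampled, so in these bulk libraries a spliced share cannot be told apart between cell types.

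By its definition an exitron is an intron in one isoform and coding sequence in another. Whether both forms were seen in these reads is given below. The isoform that keeps it reads it in an open frame, and the isoform that splices it joins the sequence on either side. Where its length is a multiple of 3 its removal takes out whole codons and the frame after it is unchanged, and where it is not, the frame shifts and the protein ends at a different stop codon. In plants most introns are rich in U and poor in G and C next to the exons around them, and most begin with GT and end with AG. A small number begin with GC, and a rare class begins with AT and ends with AC.

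The 12 GT-AG exitrons with the most spliced reads are shown first, because the results on splicing turn on them. Each line gives 12 nt of coding exon, the exitron and 12 nt of coding exon, 5′ to 3′ on the gene's strand, with the first and last 2 bases of the exitron in capitals. Coordinates are those of the exitron alone on TAIR10.1.
TIFY7 (chr1:26656629-26656710, plus strand): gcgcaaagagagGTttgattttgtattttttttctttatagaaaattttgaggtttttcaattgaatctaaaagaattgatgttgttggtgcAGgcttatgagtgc
LHCB4.2 (chr3:2718218-2718302, plus strand): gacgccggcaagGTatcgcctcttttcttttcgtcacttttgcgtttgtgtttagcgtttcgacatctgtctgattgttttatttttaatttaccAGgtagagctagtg
CAT3 (chr1:7145606-7145690, plus strand): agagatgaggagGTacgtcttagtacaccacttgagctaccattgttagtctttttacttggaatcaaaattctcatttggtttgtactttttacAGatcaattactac
GOX1 (chr3:4821941-4822032, plus strand): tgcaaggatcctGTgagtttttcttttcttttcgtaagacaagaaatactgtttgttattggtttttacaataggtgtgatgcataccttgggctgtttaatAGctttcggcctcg
CAX1 (chr2:15990599-15990702, minus strand): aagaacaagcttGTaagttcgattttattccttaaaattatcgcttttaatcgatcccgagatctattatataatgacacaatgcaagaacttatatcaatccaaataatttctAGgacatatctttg
ASN1 (chr3:17438827-17438909, minus strand): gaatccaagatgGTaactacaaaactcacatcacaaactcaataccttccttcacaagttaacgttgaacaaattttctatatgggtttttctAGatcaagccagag
XYL4 (chr5:25810817-25810884, minus strand): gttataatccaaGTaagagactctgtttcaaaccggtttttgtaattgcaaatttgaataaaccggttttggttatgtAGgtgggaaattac
CYSC1 (chr3:22737444-22737518, plus strand): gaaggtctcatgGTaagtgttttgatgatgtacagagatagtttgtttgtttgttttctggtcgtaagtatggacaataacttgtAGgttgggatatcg
SYTA (chr2:9017053-9017124, plus strand): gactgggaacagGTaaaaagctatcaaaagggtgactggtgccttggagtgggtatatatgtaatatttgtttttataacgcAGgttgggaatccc
XBAT31 (chr2:12378722-12378809, plus strand): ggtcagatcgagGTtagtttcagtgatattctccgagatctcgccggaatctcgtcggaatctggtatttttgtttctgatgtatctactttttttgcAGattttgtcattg
AT3G22845 (chr3:8088031-8088148, plus strand): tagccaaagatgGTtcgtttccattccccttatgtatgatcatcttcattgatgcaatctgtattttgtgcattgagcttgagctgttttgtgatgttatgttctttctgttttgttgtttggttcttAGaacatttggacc
PMDH2 (chr5:2993905-2993977, minus strand): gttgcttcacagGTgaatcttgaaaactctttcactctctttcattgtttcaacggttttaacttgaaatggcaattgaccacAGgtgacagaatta
GC content of these 12 exitrons ran between 24.4% in TIFY7 and 39.8% in XBAT31.

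The next lines show, in the same layout, 5 of the 6 most-read exitrons whose ends were neither GT-AG, GC-AG nor AT-AC, because they differ from the first set in their ends. The other one, in AT1G74470, is 300 nt long and is described below by its values.
AT3G01980 (chr3:328331-328421, minus strand, ends AA-GC): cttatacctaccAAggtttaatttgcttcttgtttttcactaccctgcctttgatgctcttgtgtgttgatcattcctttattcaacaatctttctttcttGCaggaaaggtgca
PTR6 (chr1:22982946-22983032, minus strand, ends GA-AG): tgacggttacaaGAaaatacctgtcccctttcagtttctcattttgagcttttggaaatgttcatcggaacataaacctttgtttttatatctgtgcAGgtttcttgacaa
RIBA3 (chr5:24073746-24073846, plus strand, ends GT-TT): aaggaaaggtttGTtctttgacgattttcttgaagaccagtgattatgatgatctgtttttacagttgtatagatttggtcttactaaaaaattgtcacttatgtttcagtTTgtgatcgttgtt
ARF8 (chr5:14633156-14633250, plus strand, ends GC-TG): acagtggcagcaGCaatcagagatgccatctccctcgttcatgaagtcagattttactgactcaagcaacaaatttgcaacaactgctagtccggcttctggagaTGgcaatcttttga
AT1G09310 (chr1:3009356-3009511, plus strand, ends CC-AG): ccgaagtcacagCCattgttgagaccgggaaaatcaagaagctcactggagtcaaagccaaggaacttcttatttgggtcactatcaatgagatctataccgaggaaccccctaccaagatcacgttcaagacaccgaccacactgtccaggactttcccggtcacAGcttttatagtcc
The next 2 lines show 2 of the 8 exitrons of PRP4, the gene with the most, of 90 nt and 45 nt, with 21 nt of coding exon on each side of the first and 32 nt on each side of the second. Here the capitals mark the stretch that occurs at both ends of the exitron, over which the spliced-out piece can be moved along the genome without changing the sequence of the spliced RNA. These stretches were 20 nt and 26 nt long.
PRP4 (chr4:18097506-18097595, minus strand): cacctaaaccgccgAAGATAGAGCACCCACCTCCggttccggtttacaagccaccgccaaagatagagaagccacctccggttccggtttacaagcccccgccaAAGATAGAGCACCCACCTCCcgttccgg
PRP4 (chr4:18097522-18097566, minus strand): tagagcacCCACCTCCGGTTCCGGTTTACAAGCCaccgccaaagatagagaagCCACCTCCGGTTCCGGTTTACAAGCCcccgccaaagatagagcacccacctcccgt
The last 3 lines, laid out as the first set, are GT-AG exitrons that the annotation does not list as an intron of any isoform. They were chosen after their values were seen.
AT2G25590 (chr2:10891383-10891452, plus strand): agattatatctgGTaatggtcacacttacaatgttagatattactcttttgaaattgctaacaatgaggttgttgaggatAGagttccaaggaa
AT5G46390 (chr5:18818517-18818591, plus strand): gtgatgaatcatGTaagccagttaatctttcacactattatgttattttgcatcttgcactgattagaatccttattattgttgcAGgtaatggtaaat
AT1G28060 (chr1:9779826-9779904, plus strand): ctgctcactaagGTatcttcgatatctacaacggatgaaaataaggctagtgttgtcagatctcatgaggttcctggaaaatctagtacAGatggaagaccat

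Of the 655 exitrons, 547 (83.5%) are listed in TAIR10.1 as an intron of another isoform of the gene, 545 of them between 2 CDS segments. These are called annotated exitrons here. The other 108 (16.5%) are inside a coding exon in some isoform and an annotated intron in none, and are called unannotated. Annotated exitrons held 96.1% of the 7941 spliced reads, with 3670.83 in replicate 1 and 3957.5 in replicate 2, against 173 and 140 spliced reads for the unannotated ones. Their median number of spliced reads was 7, against 2 for the unannotated exitrons, of which none had more than 10. Reads in both replicates were found for 484 of the 547 annotated exitrons (88.5%) and for 59 of the 108 unannotated ones (54.6%). Introns that are annotated between 2 CDS segments and lie inside none, the ordinary coding introns, were seen in both replicates in 88.7% of 83024 cases.

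The 2-read threshold lay in a dense part of the distribution. There were 150 exitrons with exactly 2 reads and 65 with more than 2 and up to 3, and a further 1421 introns inside a CDS segment fell under 2 reads and were left out. GT-AG ends made up 95.4% of the exitrons with more than 2 reads, 77.3% of those with 2 reads and 38.5% of the introns left out. The length threshold had no effect, since no intron under 30 nt inside a CDS segment had 2 reads and the shortest exitron was 36 nt long.

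GT-AG ends were found in 598 of 655 exitrons. The share was 91.8% of the exitrons seen in replicate 1 and 92.4% of those seen in replicate 2 (mean 92.1% ± 0.448, SD, n = 2). Among ordinary coding introns it was 98.8% in both replicates (82064 of 83024 pooled). All of these are annotated introns, whereas 108 of the 655 exitrons are not. The share of exitrons was lower by Fisher's exact test, two-sided, with p = 1.04e-30 pooled, 7.95e-26 within replicate 1 and 9.42e-23 within replicate 2. After Benjamini-Hochberg adjustment over the 18 such comparisons made, these were 1.87e-29, 7.16e-25 and 5.65e-22. The size of the difference depended on the thinly read exitrons. It was -7.55 percentage points over both replicates, -3.35 points with exitrons found again without replicate 1 and -4.81 points without replicate 2, and -2.25 points at 5 reads or more. Introns of 1 gene are not independent of each other, and the alignment was guided by annotated junctions and favours GT-AG ends, so these p-values measure counting error only. GT-AG ends were found in 536 of 547 annotated exitrons (98.0%) but in 62 of 108 unannotated ones (57.4%). The test against ordinary coding introns therefore cannot tell a place inside a CDS segment apart from annotation as an intron. Other unannotated introns within coding spans, those that do not lie inside 1 CDS segment, had GT-AG ends in 731 of 1074 cases (68.1%). The unannotated exitrons were below them by the same exact test with p = 0.0312 pooled (adjusted p = 0.0468), p = 0.0596 in replicate 1 (adjusted p = 0.0715) and p = 0.0341 in replicate 2 (adjusted p = 0.0471). These 2 sets differ in more than their place. The median number of spliced reads was 2 for unannotated exitrons and 3 for the other introns. The same stretch of 10 nt or more stood at both ends of 17 of the 108 unannotated exitrons (15.7%), against 0.186% of the other introns. Only 4 of these 17 had GT-AG ends. The part of read number and repeats in this difference was not tested.

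Of the exitrons without GT-AG ends, 9 began with GC and ended with AG, 4 began with AT and ended with AC, and 44 had other ends. All 9 GC-AG exitrons were seen in both replicates. The most-read was in AT5G15610, annotated as a proteasome component (PCI) domain protein, at chr5:5081588-5081674 on the plus strand. It had 27 spliced and 3 unspliced reads in replicate 1 and 29 spliced and 3 unspliced reads in replicate 2, so that 90% and 90.6% of informative reads were spliced. The most-read AT-AC exitron, in the anther gene ATA20, was different in kind. It had 1 spliced read beside 799 unspliced in replicate 1 and 3 beside 959 in replicate 2, and the spliced-out piece could be moved over 153 nt without changing the spliced sequence.

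The donor began with the letters GTAAG in 15.5% of 536 annotated exitrons, in 17.7% of 62 unannotated ones and in 17.5% of 82064 ordinary coding introns with GT-AG ends. The longer GTAAGT was found in 5.97% of annotated and 4.84% of unannotated exitrons, against 9.48% of ordinary coding introns, and GTGAG in 4.29% and 4.84%, against 6.56%. The acceptor ended with CAG in 73.7% of annotated and 51.6% of unannotated exitrons, against 67.1% of ordinary coding introns. It ended with TAG in 18.5% of annotated and 25.8% of unannotated exitrons, against 27.4% of ordinary coding introns. It ended with GAG in 1 annotated exitron (0.187%) and 5 unannotated ones (8.06%), against 0.0585% of ordinary coding introns. These are counts of letters on the sense strand at the 2 ends, and none was tested.

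Of 598 GT-AG exitrons, 296 had a length in multiples of 3, 161 were 1 nt longer than such a length and 141 were 2 nt longer. The share in multiples of 3 was 48.4% in replicate 1 and 49.8% in replicate 2, against 32.92% and 32.97% of ordinary GT-AG coding introns. No test is given, since the rule bears on length. The direction turned with the definition: where every coding transcript that spans the place had to hold the exitron in a CDS segment, 26.9% of GT-AG exitrons were in multiples of 3, a difference of -6.02 points from ordinary coding introns. Among annotated GT-AG exitrons, 275 of 536 (51.3%) were in multiples of 3, against 21 of 62 (33.9%) unannotated ones. Within replicates it was 50.3% of annotated against 30% of unannotated in replicate 1, and 51.2% against 34.1% in replicate 2. Whether an isoform that keeps an intron is annotated as coding itself depends on an open frame, and this cannot be told apart from the difference. No test of these 2 shares is given for that reason. The unannotated GT-AG exitrons lay near the 32.9% of ordinary coding introns.

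Read in the frame of the annotated isoform that keeps the exitron, removal of a GT-AG exitron in multiples of 3 left the stop codon where it was in 274 of 296 cases. It took out between 12 and 295 codons, with a median of 29. An exitron can also hold the stop codon at its end, as in AT1G01540, where removal of 69 nt turns 386 residues into 472. SYTA is the gene for synaptotagmin A, a membrane protein of the junctions between the endoplasmic reticulum and the plasma membrane. Its 72 nt exitron shortens an annotated product of 565 residues to 541. No unspliced read of it was seen, so the isoform for the longer product was not observed. In SAE2, which codes for a subunit of the enzyme that activates SUMO, the exitron of 225 nt shortens 700 residues to 625. This was the longest GT-AG exitron with at least 10 reads. The shortest such exitron, of 63 nt, was in the proline transporter gene ProT3. SAE2 had 5 and 7 spliced reads in replicates 1 and 2 beside 0 and 1 unspliced, and ProT3 had 5 and 8 beside 1 and 0. Of the 302 GT-AG exitrons whose length is not a multiple of 3, 74 gave a new stop codon more than 50 nt before the last exon junction. Among annotated ones it was 46 of 261, and the open frame after removal had a median of 102.3% of the length of the unspliced protein. Among unannotated ones it was 28 of 41, with a median of 35.3%. Lengths of all exitrons ran between 36 and 885 nt with a median of 87 nt, against 99 nt for ordinary coding introns.

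A spliced share was computed for each exitron as its spliced reads over its informative reads. These are the spliced reads plus the unspliced reads, whose exon covers the whole exitron and 10 nt on each side. Reads spliced at other sites over the same place are in neither count. The 12 exitrons with the most spliced reads were nearly always spliced in these buds. TIFY7 codes for JAZ9, a repressor of jasmonate signalling, and its exitron of 82 nt in coding segment 6 of 6 had 191 spliced reads and 0 unspliced in replicate 1, and 160 spliced and 3 unspliced in replicate 2. LHCB4.2, for a minor antenna protein of photosystem II, had 154.5 and 195 spliced reads in replicates 1 and 2 beside 5 and 1 unspliced. CAT3, for catalase 3, had 150.5 and 156 spliced reads and no unspliced read in either replicate. In each of the 3 genes the replicates lay within 3 percentage points of each other, and the annotated isoform that keeps the exitron was rare or not seen.

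**Figure D1:**
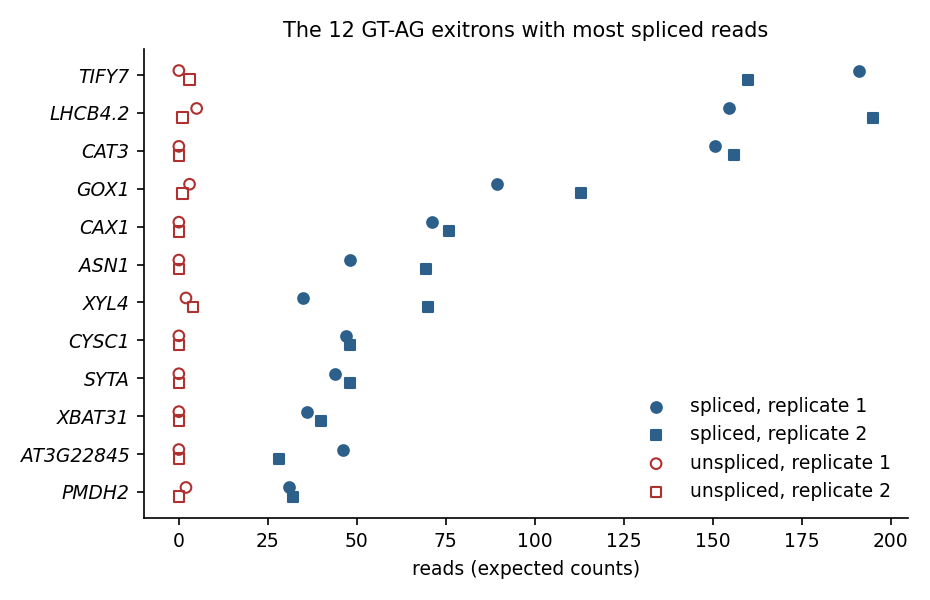
Spliced reads (filled) and unspliced reads (open), where a read that maps to several places counts as a fraction, for each of the 12 GT-AG exitrons with the most spliced reads, with replicate 1 as circles and replicate 2 as squares. Unspliced reads reached 5 at most, in LHCB4.2, whereas spliced reads ran between 28 in AT3G22845 and 195 in LHCB4.2.

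The same held for the other genes in that plot. GOX1, for the glycolate oxidase of photorespiration, had 89.5 and 113 spliced reads beside 3 and 1 unspliced. CAX1, a vacuolar calcium exchanger, had 71 and 76 spliced reads and no unspliced read. ASN1, a glutamine-dependent asparagine synthetase, had 48 and 69.5 spliced reads with none unspliced. These 3 genes take part in primary metabolism or ion transport. For GOX1 the replicates did not differ by the test given further on, which could not call CAX1 and ASN1 because they had no unspliced read. XYL4, for a beta-xylosidase of the cell wall, had 35 and 70 spliced reads beside 2 and 4 unspliced, which is 94.6% in each replicate. CYSC1, for a mitochondrial enzyme that detoxifies cyanide with cysteine, had 47 and 48 spliced reads and none unspliced. XBAT31, which belongs to a family of ubiquitin ligases, had 36 and 40 with none unspliced. AT3G22845, whose product is of the p24 family of the secretory pathway, had 46 and 28 with none unspliced, and PMDH2, for a peroxisomal malate dehydrogenase, had 31 and 32 beside 2 and 0. Of the 92 exitrons with at least 20 informative reads in each replicate, 11 were at 100% in both, and the 6 of these with the most reads were those of CAT3, CAX1, ASN1, CYSC1, SYTA and XBAT31. The exact 95% interval, which covers counting error only, began at 98.8% for CAT3 and at 95.3% for XBAT31.

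Spliced shares fell into 2 groups with few values between them. Of the 143 GT-AG exitrons with at least 20 informative reads, 89 (62.2%) were spliced in 90% or more of reads, 40 (28.0%) in under 10%, and 14 in between. All 89 in the high group were annotated, and 29 of the 40 in the low group were not. Of the 111 annotated GT-AG exitrons with this depth 89 (80.2%) were in the high group, and 46 had no unspliced read at all. Over all depths, 333 of 536 annotated GT-AG exitrons (62.1%) had no unspliced read, so the isoform whose coding sequence holds them was not observed, against 5 of 62 unannotated ones. The median share was 100% for annotated and 10.9% for unannotated GT-AG exitrons, and 0.685% for the 44 exitrons with other ends. Since a spliced read is needed to enter the set and an unspliced read is not, shares near 0 can be seen only in genes with many reads. Ordinary coding introns with at least 20 informative reads were spliced in 90% or more of reads in 98.9% of 23673 cases and in under 10% in 8 cases.

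**Figure D2:**
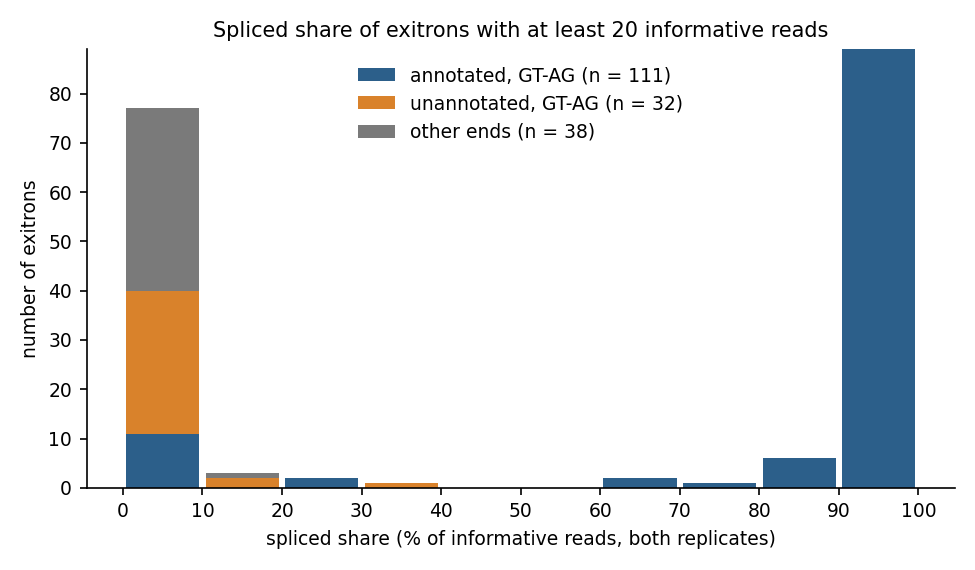
Number of exitrons (vertical axis) by spliced share in classes of 10 percentage points (horizontal axis), for exitrons with at least 20 informative reads over both replicates, stacked by kind: 111 annotated GT-AG, 32 unannotated GT-AG and 38 with other ends. The shares pile up below 10% and at 90% or above, and the upper class holds only annotated exitrons.

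The 14 GT-AG exitrons with 20 or more informative reads and a share between 10% and 90% were chosen for naming after their values were seen. MAF1 (also FLM), a MADS-box repressor of flowering, had 19 spliced and 7 unspliced reads in replicate 1 and 8 and 6 in replicate 2, a share of 67.5% (exact 95% interval 50.9% to 81.4%). Its exitron of 81 nt is in multiples of 3. ATU2AF65A, for the large subunit of the splicing factor that binds the polypyrimidine tract, had 11 spliced and 8 unspliced reads in replicate 1 and 15 and 4 in replicate 2, a share of 68.4% (51.3% to 82.5%). A second, unannotated exitron of ATU2AF65A, also 100 nt long, had 1 and 3 spliced reads beside 30 and 31.5 unspliced. ALC, for a bHLH factor needed for fruit opening, had 10 spliced and 4 unspliced reads in replicate 1 and 14 and 1 in replicate 2. Both forms of these genes were present in each replicate. RBP-DR1, an RNA-binding protein, stood at 86.4%, AT5G18230, annotated as a subunit of the NOT transcription regulator complex, at 80.8%, and AT2G17990 at 75%. On the low side, ATSRL1, annotated as a PRP38 family protein, was spliced in 4 of 20 informative reads in each replicate. AT1G28060, annotated as a pre-mRNA splicing factor, had 1 spliced and 3 unspliced reads in replicate 1 and 6 and 10 in replicate 2, and its exitron is unannotated.

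Spliced shares were compared between the replicates with Fisher's exact test on the spliced and unspliced reads of each intron, over all 19527 introns with at least 10 informative reads in each replicate. The test called 0% of them at an adjusted p of 0.05, and so 0 of the 155 exitrons tested. Introns with no unspliced read in either replicate were among those tested and could not be called. At an unadjusted p under 0.05 there were 16 introns, of which 3 were exitrons, and a chi-square test on the same introns also called 0, with 5 exitrons at an unadjusted p under 0.05. The lowest p of the exact test among exitrons was 0.0198 (adjusted p = 1). The 3 were in AT2G17990, with 14 spliced and 1 unspliced read in replicate 1 and 7 and 6 in replicate 2, in AT3G05610, with 4 spliced and 17 unspliced in replicate 1 and 0 and 25 in replicate 2, and the 90 nt exitron of PRP4. Across the 155 exitrons the median difference between replicates was 0.728 points and 115 differed by 5 points or less. The largest difference, 39.5 points, was that of AT2G17990. Pearson's r of the 2 shares was 0.9897 over the 155 exitrons, which is a description of 2 clusters of values near 0 and 100% and carries no test.

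**Figure D3:**
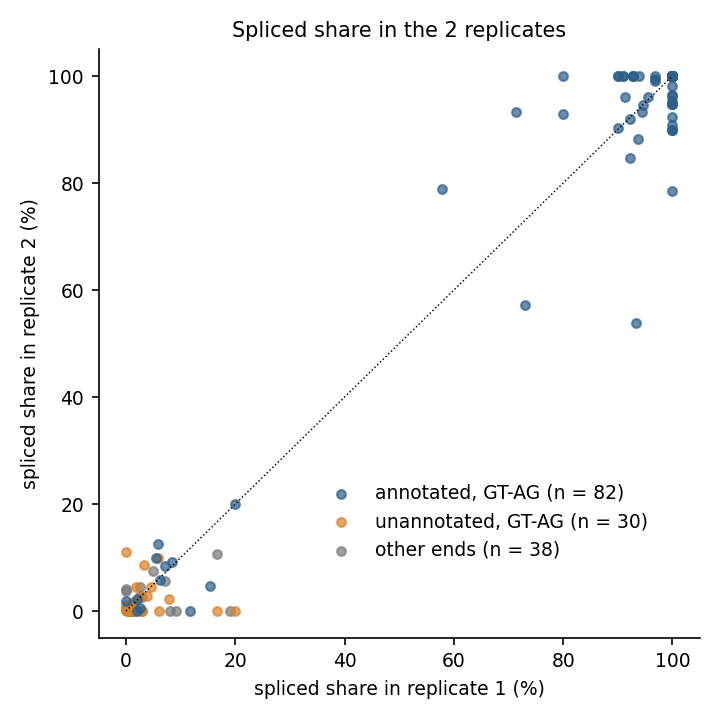
Spliced share in replicate 1 (horizontal axis, %) and replicate 2 (vertical axis, %) for exitrons with at least 10 informative reads in each replicate: 82 annotated GT-AG, 30 unannotated GT-AG and 38 with other ends. The dotted line marks equal shares, and the points lie near both of its ends with 4 exitrons between 10% and 90% in both replicates.

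Median base composition differed between the kinds of exitron, though their ranges overlapped widely. GC content ran between 20% and 70.8% in annotated GT-AG exitrons, 24.7% and 62.5% in unannotated ones, and 29.7% and 77.8% in those with other ends. Median GC content was 34.4% in annotated GT-AG exitrons, 42.3% in unannotated GT-AG exitrons and 55.7% in exitrons with other ends, against 32.98% in ordinary coding introns. The 50 nt of sequence on either side had a median GC content of 44% for annotated and 46% for unannotated GT-AG exitrons, and GC content was lower in the exitron than in its flanks in 510 of 536 annotated (95.1%), 45 of 62 unannotated (72.6%) and 15 of 44 exitrons with other ends (34.1%). T made up a median of 40.0% of annotated and 30.9% of unannotated GT-AG exitrons, against 40.8% of ordinary coding introns. Among GT-AG exitrons with at least 20 informative reads the median GC content was 34.1% where the share was 90% or more, 32.5% between 10% and 90%, and 48.1% under 10%. The shares in multiples of 3 in these 3 classes were 44.9%, 42.9% and 50%. No test was run on composition, since exitrons that overlap share bases.

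**Figure D4:**
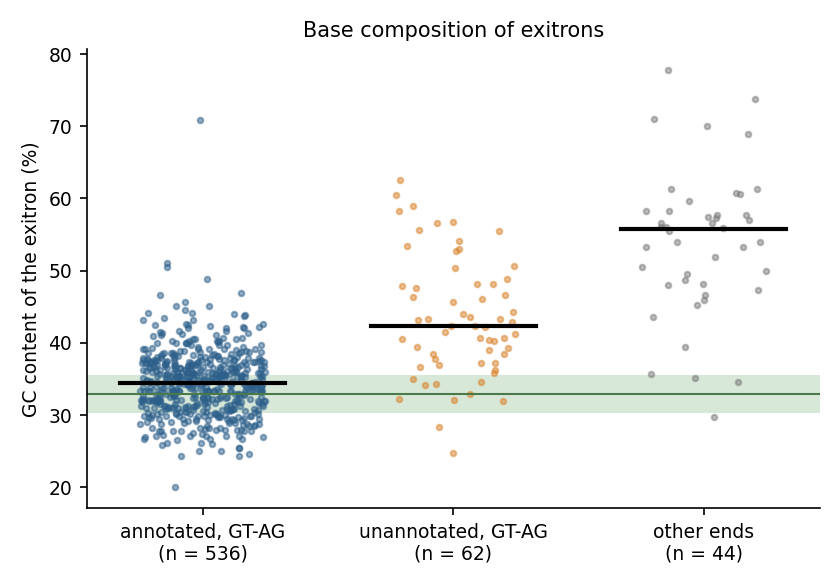
GC content of each exitron (vertical axis, %) for annotated GT-AG exitrons, unannotated GT-AG exitrons and exitrons with other ends. Black bars are medians (34.4%, 42.3% and 55.7%), the green line is the median of ordinary coding introns (32.98%) and the green band runs between their quartiles (30.4% and 35.4%). Points of the 44 exitrons with other ends lie mostly above the band.

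The 44 exitrons with other ends were thinly covered. They had 126 spliced reads in all, 74 in replicate 1 and 52 in replicate 2, 8 at most for 1 exitron, and 37 of the 38 with at least 20 informative reads were spliced in under 10% of reads. The most-read was in AT1G74470, annotated as an oxidoreductase that uses pyridine nucleotides, whose 300 nt exitron with the ends AC and TG had 5 spliced and 340 unspliced reads in replicate 1 and 3 and 382 in replicate 2. ARF8, for an auxin response factor, had 2 spliced and 10 unspliced reads in replicate 1 and 3 and 25 in replicate 2. AT1G09310 had 5 spliced reads in replicate 1 and 0 in replicate 2, with 57 and 55 unspliced. These 3 were minor forms beside the unspliced RNA. The other 3 shown above had few unspliced reads or none. PTR6, of the major facilitator superfamily of transporters, whose exitron is annotated with the ends GA and AG, had 5 and 1 spliced reads beside 1 and 0 unspliced. AT3G01980, annotated with a nucleotide-binding fold, had 3 spliced reads in each replicate and none unspliced, and RIBA3, for a riboflavin biosynthesis protein, had 5 and 1 with none unspliced. The exitrons of AT3G01980 and RIBA3 were among 6 unannotated exitrons with both ends within 10 nt of those of an annotated intron, 4 of which had other ends. Reads spliced at the annotated intron are in neither count, so whether the forms of AT3G01980 and RIBA3 are minor cannot be told from these reads.

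Repeats at the 2 ends were rarer in GT-AG exitrons than in those with other ends. The same stretch of 10 nt or more stood at both ends of 4 of 598 GT-AG exitrons (0.669%), against 12 of 44 with other ends (27.3%) and 33 of 83024 ordinary coding introns (0.0397%). Between GT-AG exitrons and exitrons with other ends the shares differed by Fisher's exact test, two-sided, with p = 3.43e-12 pooled (adjusted p = 7.72e-12), p = 3.33e-12 in replicate 1 and p = 2.14e-08 in replicate 2. Together with 2 AT-AC exitrons this made 18 with such a repeat, in 7 genes: 5 each in PRP4 and ATA20, 3 in GRP17, 2 in AGP31 and 1 each in AT1G20130, AT3G05610 and smB. Of these 18, 16 were in genes with 3 or more exitrons. Exitrons of 1 gene are not independent of each other, so the p-values on repeats count a few genes many times. They are too small for that reason and do not measure a difference between genes. PRP4, for a proline-rich protein, held 8 exitrons of between 45 and 99 nt, all of them in multiples of 3, each with 2 to 5 spliced reads over both replicates beside 284.83 to 362.49 unspliced reads in a replicate. The 90 nt exitron shown above was spliced in 5 reads of replicate 1 and 0 of replicate 2. ATA20, a gene named for the anther, held 7 exitrons with 2 to 4 spliced reads each, GRP17, for a glycine-rich oleosin of the pollen coat, held 5, AT1G20130 held 4, and AGP31, an arabinogalactan protein of the cell wall, held 3. In these 5 genes no exitron was spliced in more than 0.999% of informative reads. HSC70-1, with 4 exitrons spliced in 0.505% of reads or fewer, had repeats of 6 or 7 nt. Reverse transcription and PCR can skip between repeats in a cDNA, and its part in these exitrons was not tested.

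Not every gene with several exitrons had this pattern. TIFY7 held 3. Besides the 82 nt exitron there was 1 of 72 nt in coding segment 5, with 5 and 1 spliced reads in replicates 1 and 2 beside 185 and 161 unspliced, and 1 of 78 nt with the same donor and an acceptor 6 nt further on, which had 0 and 2 spliced reads. Both are in multiples of 3. AT5G43310 held 3 exitrons that were spliced in all of 17, 8 and 8 informative reads, and AT3G54500, annotated as an agglutinin-like protein, held 3 overlapping ones with no unspliced read. In all, 523 genes by first locus held 1 exitron, 43 held 2 and 11 held 3 or more, and 55 exitrons overlapped another.

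Exitrons with few spliced reads beside many unspliced ones turned up in the genes with the most reads. The rule needs 2 spliced reads, so a low share can be seen only in a gene with many reads. The shares of genes by read class are thus a description. Unannotated GT-AG exitrons were found in 5.65% of the 177 protein-coding genes with 300 reads or more and in 0.113% of the 9737 genes with 1 to under 10 reads, and exitrons with other ends in 6.78% and 0.0205%. Genes whose GT-AG exitrons were all annotated showed no such rise, at 1.13% of the most-read class against 2.37% of the least-read class, with the highest share, 3.14%, at 10 to under 30 reads. Of the 44 exitrons with other ends, 31 were in genes with 100 reads or more, as were 20 of 62 unannotated and 12 of 536 annotated GT-AG exitrons.

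**Figure D5:**
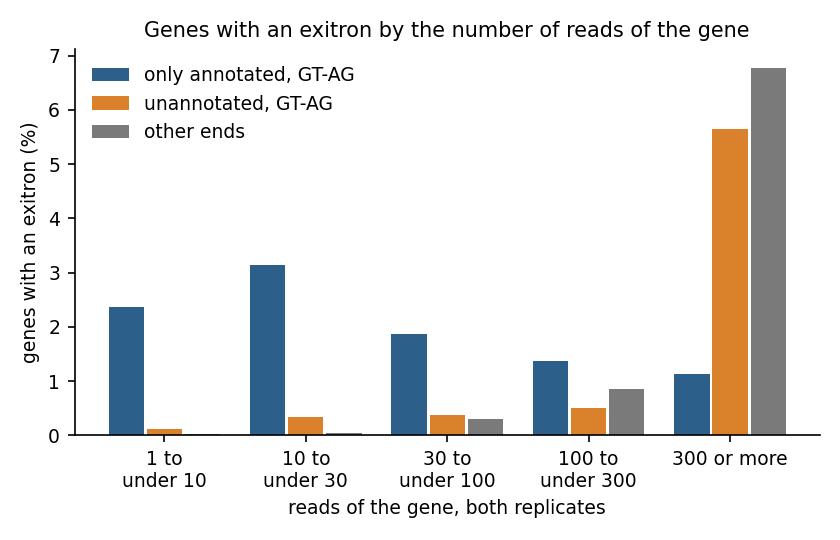
Share of protein-coding genes (vertical axis, %) with only annotated GT-AG exitrons, with an unannotated GT-AG exitron, or with an exitron with other ends, by the number of reads of the gene over both replicates (horizontal axis). The last 2 kinds reach 5.65% and 6.78% at 300 reads or more, where only annotated GT-AG exitrons are in 1.13% of genes.

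The unannotated GT-AG exitrons with the most reads were named after their values were seen. AT2G25590, annotated as Tudor-like, had 4 spliced and 2 unspliced reads in replicate 1 and 6 and 2 in replicate 2, the most for this kind. AT5G46390, of the peptidase S41 family, had 5 and 3 spliced reads and none unspliced, beside an annotated exitron with the same acceptor and 3 and 2 spliced reads. AT1G23580 had 1 spliced and 0 unspliced reads in replicate 1 and 5 and 2 in replicate 2. In these 3 genes spliced reads outnumbered unspliced ones, though with 14 informative reads at most the interval for AT2G25590 ran between 41.9% and 91.6%. AT1G01300, an aspartyl protease gene, had 2 spliced and 111 unspliced reads in replicate 1 and 5 and 104 in replicate 2. HSC70-1, for a cytosolic chaperone, had the longest exitron, of 885 nt, in 6 reads of replicate 1 and 1 of replicate 2, beside 682.5 and 697 unspliced. AT1G20130, whose product is a GDSL lipase, had 3 and 1 spliced reads beside 205.5 and 190.8 unspliced.

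The annotated exitrons that were seldom spliced were fewer. Of the 11 GT-AG ones with at least 20 informative reads and a share under 10%, EXPA1, for an expansin that loosens cell walls, had 2 and 4 spliced reads beside 32 and 28 unspliced, and HTH, needed for the separation of floral organs, had 0 and 2 beside 86 and 104. AT1G01100, for an acidic protein of the large ribosomal subunit, had 2 and 0 spliced reads beside 95 and 47 unspliced, and its exitron of 48 nt had the highest GC content of the annotated set at 70.8%. These 3 were chosen after their values were seen.

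The holding coding segment was the last one of its transcript for 306 of 536 annotated GT-AG exitrons (57.1%) and for 25 of 62 unannotated ones (40.3%). The start of the exitron lay at a median relative position of 0.758 along the coding sequence for annotated and 0.429 for unannotated GT-AG exitrons, on a scale where 0 is its first base and 1 its last. The coding sequence meant here is that of the isoform that keeps the exitron, and it can end early. In VAD1, with the exitron in coding segment 15 of 15, removal turns 473 residues into 598, and in MPK11 it turns 346 into 369. Where exitrons lie thus cannot be told apart from where such isoforms end. In 12 annotated and 12 unannotated GT-AG exitrons the transcript that holds it has a single exon.

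A cap label, the untemplated G that marks a capped 5′ end, was on 61.4% of spliced reads over exitrons in replicate 1 and 61.6% in replicate 2, against 66.6% and 66.4% of unspliced reads over the same places. A 3′ label was on 89.0% and 89.3% of spliced and on 85.8% and 84.9% of unspliced reads. These pools come from different genes, since unannotated exitrons gave 40877.9 of the 44105.8 unspliced reads but few spliced ones. Over annotated GT-AG exitrons alone, a cap label was on 60.8% and 61.3% of spliced and 62.2% and 61.5% of unspliced reads. There the 3′ label was on fewer spliced reads, 89.1% and 89.4%, than unspliced reads, 92.1% and 90.1%. Over annotated GT-AG exitrons, spliced reads kept another coding intron less often than unspliced reads did, in 4.17% of reads in replicate 1 and 4.13% in replicate 2, against 12.4% and 13.6% of unspliced reads. EXPA1 alone gave 58 of these 189 unspliced reads, and without it the shares were 8.35% and 10.4%. Over unannotated GT-AG exitrons it was spliced reads that more often kept another coding intron, in 17.3% and 11.6% of them, against 2.40% and 2.35% of unspliced reads, where GRP7 alone gave 220.5 of 358 unspliced reads and the shares without it were 1.05% and 0.853%. Reads of 1 gene are not independent, and no test was run on these shares.

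Gene groups were formed by words in the annotated product. Of the 9862 protein-coding genes with at least 10 reads, 305 (3.09%) held a GT-AG exitron. Among 189 genes for splicing, SR or other RNA-binding proteins it was 11 (5.82%), among 75 genes for photosystem, chlorophyll or light harvesting proteins 4 (5.33%), among 476 kinase genes 16 (3.36%), among 365 genes for transcription factors, homeobox, zinc finger or MADS proteins 12 (3.29%), among 283 ribosomal protein genes 5 (1.77%), among 117 ubiquitin genes 2 (1.71%) and among 54 histone genes 0. These are counts without a test, and none is given as particular to its group. The 11 genes of the RNA-binding group held 12 such exitrons, of which 1 had no unspliced read. SR45a, for an SR-type splicing regulator, had 5 and 2 spliced reads beside 1 and 1 unspliced, LARP6c, an RNA-binding protein of pollen, had 11 and 12 beside 0 and 1, DRB4, a partner of a Dicer enzyme, had 0 and 3 beside 8 and 8, and GRP7, a glycine-rich clock-controlled RNA-binding protein, had 2 and 0 beside 259 and 269. In the transcription factor group SHP1, which patterns the carpel, had 8 and 10 spliced reads beside 2 and 0 unspliced, ABI5, of abscisic acid signalling, had 16 and 6 beside 0 and 2, and BZO2H3, a bZIP gene, held 2 annotated exitrons with 8 and 13 and with 8 and 14 spliced reads. Among 33 glycine-rich or oleosin genes 1, GRP17, held one. Members of these groups were read out of the annotation, and a product described in other words is not counted.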

How the data were processed

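Long reads of 2 libraries (1 group) were analysed from the deposited read alignments. As deposited by the authors, each line is a full-length non-chimeric read with its exons and an expected count, which is a fraction where the read maps to several places. Alignment used minimap2 (version not given in the sources used here) on TAIR10, per the submitters' processing notes, guided by annotated junctions. Introns of nuclear reads were summed over reads, and each was placed against the TAIR10.1 annotation. Two-sided Fisher's exact tests compared kinds of intron, pooled and within each replicate, with Benjamini-Hochberg adjustment over 18 tests. Those of multiples of 3 are not given, since the rule and the annotation bear on length. The same test on rounded counts compared replicates over all 19527 introns with at least 10 informative reads in each. Shares have exact Clopper-Pearson 95% intervals, which cover counting error only. Total nuclear reads were 261570 and 247839. Python 3.11.15, pandas 2.3.3, scipy 1.17.1 and matplotlib 3.10.9 were used, and the steps were tested on simulated data. The biological replicates are separate samples per the labels, and what they shared is not stated.

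Exitrons and lists were chosen with earlier results of these data known. Named by rule were the 12 most-read GT-AG exitrons with a read in each replicate, the 6 with the highest share among those with 20 informative reads in each replicate (ties broken by read number, after the data were seen), up to 5 that differed between replicates (there were none), the 6 most-read with other ends, the most-read GC-AG and AT-AC exitron, the shortest and longest GT-AG exitron with 10 reads, and the gene with the most exitrons. All others were named after their values were seen. Alternatives are given in the closing section.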

Additional observations from a re-analysis of the deposited data

Results flagged for a closer look

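Reads antisense to a coding gene were not used for exitrons. They held 48 introns of at least 30 nt and 2 reads that lay inside a CDS segment of the gene on the opposite strand, with 88 reads in replicate 1 and 98 in replicate 2. This was a signal outside the main measurement. All 48 had GT-AG ends on the strand of the read, and 37 are annotated introns of another gene or transcript on that strand.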

How the results depend on the processing

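With 1 read as the minimum there were 2061 exitrons in 1498 genes, 55.4% with GT-AG ends and a median spliced share of 8.33%. With 5 reads there were 387 in 363 genes (96.6% GT-AG, 48.4% of these in multiples of 3), and with 10 reads 215 in 206 genes (97.7% GT-AG). GT-AG ends made up 93.0018% with a read in each replicate, 92.4% at 60 nt or more, 93.4% of those from reads with cap and 3′ labels, and between 94.1% and 95.5% without 1 replicate. Requiring every coding transcript that spans the place to hold it in a CDS segment left 90 exitrons in 69 genes, with 57.8% GT-AG, 26.9% of these in multiples of 3 and a median share of 3.19%.

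Added after seeing the data, the same definition turned the difference in multiples of 3 from ordinary coding introns to -6.02 points, against 16.6 points over all exitrons. Also added were only the 108 unannotated exitrons in 79 genes (57.4% GT-AG, 33.9% of these in multiples of 3, median share 3.05%), where that difference was 0.930 points, and only exitrons movable by under 10 nt (93.2% GT-AG). Without 1 replicate there were 456 to 490 exitrons, and 486 from reads with both labels. The GT-AG difference stayed past the threshold under all alternatives run for it, at -2.25 to -41.4 points, the last with only the unannotated exitrons. None of these kept only the annotated exitrons, of which 98.0% had GT-AG ends, whereas all ordinary coding introns are annotated. The alternatives therefore cannot tell a place inside a CDS segment apart from annotation. The causes were not tested. No paired analysis was possible because there was 1 group. Low counts limit most shares: the median exitron had 9 informative reads.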
